A study of Oryctolagus cuniculus with 30 samples.

Results

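A group of 68 array probes was lower under an occlusive film than without it at day 5 of wound aftercare and not at day 3. They were chosen from the authors' table of 23369 probes in rabbit epidermis by measured values. A probe of the class named UF_Ocu_AF was kept where its highest group mean on the log2 scale was at least 9, where the uncovered mean at day 5 exceeded the covered one by at least 0.8, and where the arms at day 3 differed by less than 0.3 in either direction. The class holds 14558 probes, of which 7795 reached the first limit and are called the bright probes below. The day 5 and day 3 differences between the arms are therefore the basis of the choice and are given only as a description. The study asked how the hydration state of newly closed epidermis bears on gene expression.

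All samples came from the ears of female rabbits of the New Zealand White breed, and each array held the epidermis of 1 sample after chemical separation from the dermis. Shallow incision grids stayed under Tegaderm, a clear adhesive film, in 1 layer until they had closed 2 days after wounding, which is day 0. After that the right ear carried no dressing and the left ear carried 4 further layers. The groups were unwounded skin (2 arrays), the wound at day 0 (6), the uncovered wound at day 3 (6), the covered wound at day 3 (5), the uncovered wound at day 5 (6) and the covered wound at day 5 (5). The labels used here state no ages, no allele or drug is named for any group, and nothing links an array to its animal. Ears of the same animal may thus stand in both arms, the side of the ear goes with the treatment, and the p-values below reflect the spread of these samples alone, which may be technical.

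The epidermis is a layered epithelium of keratinocytes that mature from a dividing basal layer to a cornified surface, which holds water in the body. A freshly closed wound has an incomplete barrier and loses water, and an occlusive film slows that loss. Keratinocytes under such a film are known to show lower levels of inflammatory signals than those of wounds left dry. The array files describe every probe as unknown and give clone or contig names (assembled cDNA sequences) in place of genes. No probe name could be matched to a gene, so the members are given by probe, contig and sequence, and lists of keratinocyte, immune and dermal marker genes could not be applied to check the tissue.

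The 10 members with the largest day 5 difference in the authors' table are shown because the description turns on them. On the scanner scale used for levels below, the order differs, and UF_Ocu_AF_111059 (2.60), UF_Ocu_AF_104865 (2.48), UF_Ocu_AF_112836 (2.37) and UF_Ocu_AF_103761 (2.24) come before 4 of these 10. Each is a 60-base probe, written 5′ to 3′ with its contig in brackets where that is printed, and capitals mark runs of at least 5 identical bases.
UF_Ocu_AF_113422 (nag36h11.x1): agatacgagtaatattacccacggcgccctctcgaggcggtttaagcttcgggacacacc
UF_Ocu_AF_102243 (R4.4570.C1): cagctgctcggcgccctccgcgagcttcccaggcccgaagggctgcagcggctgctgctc
UF_Ocu_AF_113499 (nbc07a04.y1): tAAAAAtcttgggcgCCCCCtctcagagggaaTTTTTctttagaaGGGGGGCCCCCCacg
UF_Ocu_AF_107166: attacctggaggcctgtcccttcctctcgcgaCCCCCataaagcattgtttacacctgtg
UF_Ocu_AF_103381 (naf08a05.x1): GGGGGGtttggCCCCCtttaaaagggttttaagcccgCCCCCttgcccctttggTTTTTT
UF_Ocu_AF_106340 (nbd13g02.y1): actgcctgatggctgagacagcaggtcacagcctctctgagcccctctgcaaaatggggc
UF_Ocu_AF_106741 (nbc37d02.x1): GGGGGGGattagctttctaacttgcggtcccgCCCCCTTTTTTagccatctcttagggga
UF_Ocu_AF_107924 (R4.4464.C1): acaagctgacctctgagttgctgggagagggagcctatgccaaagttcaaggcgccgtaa
UF_Ocu_AF_113773 (R4.3600.C1): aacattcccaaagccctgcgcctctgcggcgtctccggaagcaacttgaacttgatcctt
UF_Ocu_AF_103350 (nbc42b10.y1): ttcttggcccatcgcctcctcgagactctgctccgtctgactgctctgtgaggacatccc
Of these 10, 6 hold no run of that kind, and UF_Ocu_AF_103381 holds 4 separate stretches of them. Runs of at least 5 identical bases occurred in 28 of the 68 members (41.2%), in 30.4% of the bright probes and in 28.2% of all probes of the class. A forward reading frame free of stop codons was present in 66 members (97.1%) and in 80.5% of the bright probes. The polyadenylation signal AATAAA was present on the probe's strand in 3 members (4.4%) and in 1010 bright probes (13.0%), and on the reverse strand in 0 members and in 4.6% of bright probes. The variant ATTAAA was present in 0 members on either strand, against 4.5% of bright probes on the probe's strand and 3.2% on the reverse strand. Both signals and the stop codons are rich in A and T, bases in which the members were poor, as the next paragraph shows. The part of base composition in these shares was not tested.

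The members were rich in G and C. Their median content was 55% (range 41.7% to 83.3%), against a median of 43.3% over the bright probes and 45.0% over the class. No member came from the 3428 bright probes with up to 40% G and C, 14 came from the 2574 with over 40% to 50%, 42 from the 1543 with over 50% to 60%, and 12 from the 250 above that. The difference between the arms followed the same order over the bright probes as a whole. On the scanner scale defined below, the day 5 median of uncovered minus covered was -0.24 in the bin of lowest content and -0.04, 0.22 and 0.43 in the bins above it. Without replicate 1 of the covered wound at day 5 these medians were -0.21, -0.07, 0.12 and 0.21, and at day 3 they were -0.15, -0.04, 0.08 and 0.09. In the authors' table the day 5 medians were -0.23, -0.06, 0.14 and 0.28. The part of base composition in the members' difference was not tested.

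**Figure D1:**
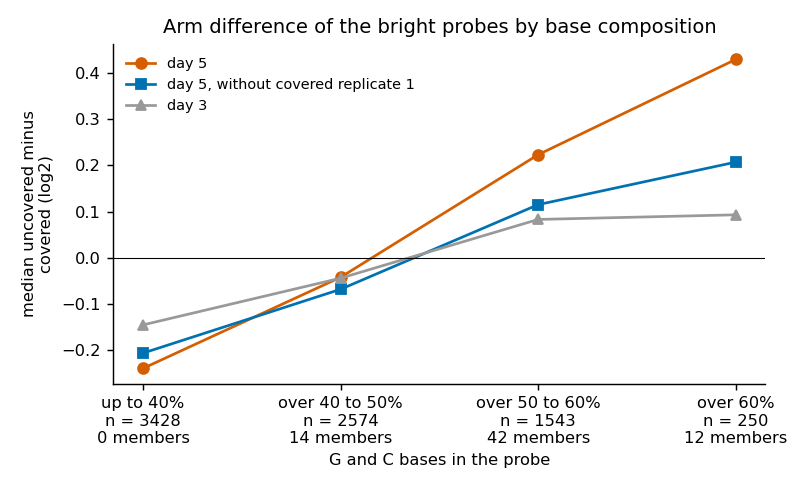
Median difference between uncovered and covered wounds (log2, scanner scale, y axis) of the 7795 bright probes in 4 bins of G and C content (x axis, with the number of probes and of members under each bin), for day 5, for day 5 without replicate 1 of the covered wound, and for day 3. All 3 lines rise with G and C content, and the day 5 line reaches 0.43 in the bin above 60%.

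In the authors' table the members' difference at day 5 ran from 0.80 to 2.47 with a median of 1.11 log2 units, and their difference at day 3 from -0.21 to 0.28 with a median of 0.06. Over all 23369 probes both medians were close to 0 (-0.00). Just inside the day 5 limit lay UF_Ocu_AF_111209 (0.80), UF_Ocu_AF_114207 (0.80) and UF_Ocu_AF_108052 (0.80), and just outside lay UF_Ocu_AF_110806 (0.80), UF_Ocu_AF_104616 (0.79) and UF_Ocu_AF_106451 (0.78). The day 3 limit had UF_Ocu_AF_100345 (0.28), UF_Ocu_AF_102372 (0.26) and UF_Ocu_AF_108101 (0.26) inside and UF_Ocu_AF_102346 (0.31), UF_Ocu_AF_100613 (0.32) and UF_Ocu_AF_108072 (0.32) outside. The lowest of the members' highest means were those of UF_Ocu_AF_104523 (9.24), UF_Ocu_AF_113732 (9.28) and UF_Ocu_AF_110651 (9.29), and no probe that met the other limits lay below 9 down to 8. Of the bright probes, 269 reached the day 5 limit at all, and 145 of these also reached 0.8 at day 3. In the opposite direction, 74 bright probes were higher under cover by at least 0.8 at day 5, of which 17 met the day 3 limit.

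**Figure D2:**
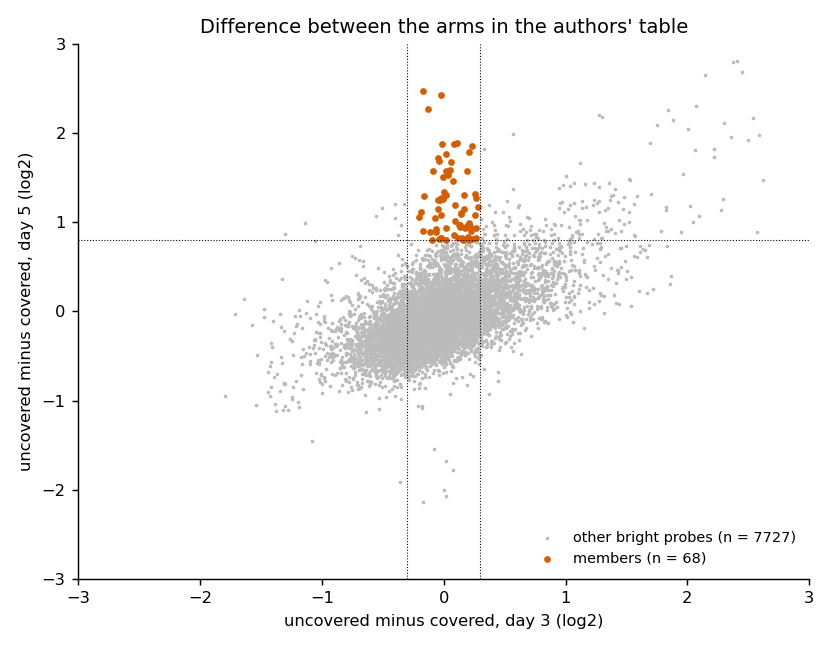
Uncovered minus covered at day 3 (x axis, log2) against the same at day 5 (y axis, log2) for the 7795 bright probes of the authors' table, with the 68 members in orange and the limits of the rule as dotted lines. The members fill the strip above 0.8 and within 0.3 of 0 at day 3, and 30 probes lie outside the plotted range of 3 log2 units.

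Membership of 2 probes rests on single spots. UF_Ocu_AF_113732 and UF_Ocu_AF_104523 each had a pair of spots on the array, and on replicate 5 of the uncovered wound at day 5 these read 131136 and 19.9, and 34116 and 18.6, in units of processed signal. The brighter spot of each pair carried the scanner program's flag for a non-uniform spot. The authors' table holds 112417 and 48503 for these probes on that array, against at most 231 and 267 on any other array. With the flagged spots left out, as in all levels below, neither probe was well above background on any of the 30 arrays, and neither was tested.

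Levels below are log2 processed signals of the scanner relative to each array's 75th percentile over 7446 probes detected on all arrays, so a level of 0 is that percentile. On this scale the median over the members was between -5.02 and -4.05 on the 6 arrays of the wound at day 0, between -4.82 and -3.71 on the uncovered wound at day 3 and between -4.63 and -4.13 on the covered wound at day 3. At day 5 it was between -2.53 and -1.58 on the 6 uncovered arrays, and -5.43, -3.13, -3.02, -3.13 and -2.98 on the covered arrays 1 to 5. All uncovered day 5 arrays thus lay above all covered ones, and 4 of the 5 covered arrays lay above every array of day 3 and day 0. The unwounded arrays stood at -3.63 and -5.34. In bulk epidermis, fewer cells of a kind and less RNA per cell cannot be told apart.

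**Figure D3:**
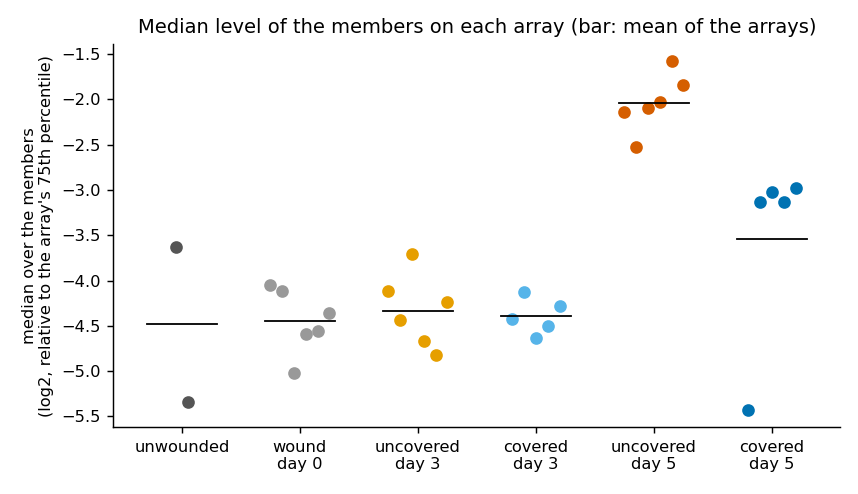
Median level of the 68 members on each of the 30 arrays (y axis, log2 relative to the array's 75th percentile) by group (x axis), with the mean of each group's arrays as a bar. The 6 uncovered arrays at day 5 lie between -2.53 and -1.58, and covered replicate 1 at day 5 lies at -5.43, apart from the other 4.

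Replicate 1 of the covered wound at day 5 stood apart. It shared slide 6 and a scan day with replicate 2 of the unwounded skin and no other array, and 595 of its spots were flagged as outlying, against 4 to 267 on the other arrays. It was the lowest covered day 5 array for 55 members, and 5 members had no value on it. It lay below the mean of the other 4 by a median of 2.31 log2 units over the 63 members measured, and the same deviation had a median of -0.00 over the bright probes and of -1.51 over all probes of the array, most of them dim. In the authors' table it was -1.02 over the members and 0.01 over all probes. Replicate 5 of the uncovered wound was the highest of its group for 52 members. With all arrays, the median difference over the members on the scanner scale was 1.39 over all 68 and 1.41 over the 66 detected on at least 2 arrays (range 0.69 to 2.60), where the bright probes had a median of -0.07 and all probes one of 0.55. Without covered replicate 1 these medians were 1.098, -0.08 and 0.20. Without uncovered replicate 5 it was 1.31. In the authors' table, 50 of the 68 kept a difference of at least 0.8 without covered replicate 1, and 54 without uncovered replicate 5. A slide with both day 5 arms gives a comparison free of differences between slides. Such slides were 3 in number, each with 1 array per arm. The median over the members was 1.61 on slide 1, 1.33 on slide 3 and 0.94 on slide 9, with 63, 68 and 65 of the 68 members above 0. On slide 1 the uncovered array was replicate 5, named above as the highest of its group for 52 members. The rule used the arrays of these slides too, so values above 0 follow in part from the choice. With all arrays, 3377 of the 7795 bright probes and 17103 of all 23369 probes were above 0 on the scanner scale.

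Separation of the arms was incomplete for single members. For 39 of the 68 (57.4%) every uncovered array lay above every covered one at day 5, and for 29 the arms overlapped. Among the 12342 probes detected on at least 2 arrays this held for 5.76%, and among the bright probes for 4.77%. The rule chose the members by the means of these same arrays, so nothing is read from the gap between these shares. The count of 39 was 40 without covered replicate 1 and 49 without uncovered replicate 2. At day 3 no member had arms that did not overlap, in either direction. The day 3 limit of the rule leaves little room for separate arms, so nothing is read from that count. The median difference at day 3 was 0.11 on the scanner scale, with 44 members above 0 and 24 below. It ran from -0.42 (UF_Ocu_AF_113422) to 0.66 (UF_Ocu_AF_107924). The day 3 limit was applied to the authors' table alone, and on the scanner scale some members, these 2 included, lay past it. Within the 3 slides that held both arms (5, 9 and 11) the median was 0.10, 0.45 and -0.08. Members above 0 on these slides numbered 41, 61 and 27 of the 68.

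The rule fixes that each member's step from day 3 to day 5 is larger in the uncovered arm in the authors' table, so the steps are given only to show where each arm went. From day 3 to day 5 the median step over the members was 2.05 log2 units in the uncovered arm and 0.60 in the covered arm, where the bright probes as a whole had medians of 0.08 in both. In the authors' table the members' steps were smaller, with medians of 1.41 and 0.27. Without covered replicate 1 at day 5, the median covered step was 1.055 on the scanner scale and 0.47 in the authors' table. With a step counted from 0.5 log2 units, 36 members went up in both arms and 27 went up in the uncovered arm while staying within that step under cover. Under cover alone 3 members went down, 1 went down in both arms and 1 stayed within the step in both. This split rested on covered replicate 1. Without it 55 members went up in both arms and 6 went up only in the uncovered arm while staying within the step under cover, and UF_Ocu_AF_102010 and UF_Ocu_AF_102011 went up uncovered and down under cover. In the authors' table the first 2 classes held 25 and 36 members with all arrays, and 32 and 28 without that array. Relative to unwounded skin, the median difference at day 5 was 2.46 in the uncovered and 0.86 in the covered arm, and 1.56 and 0.37 in the authors' table. These values depend on which unwounded array is the baseline. Against replicate 1 alone they were 1.53 and -0.09 on the scanner scale, and against replicate 2 alone 3.19 and 1.76. The highest of the 6 group means in the authors' table was the uncovered wound at day 5 for 62 members. The rule favours that group, so nothing is read from this count.

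**Figure D4:**
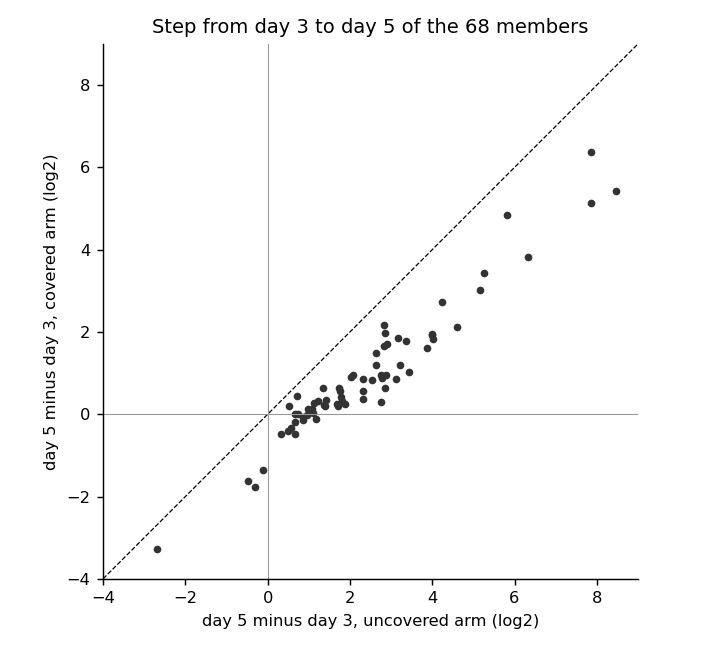
Change from day 3 to day 5 in the uncovered arm (x axis, log2) against the change in the covered arm (y axis, log2), 1 point for each of the 68 members, with a dashed line where both are equal. A place below the dashed line follows from how the members were chosen. Of the 68 points, 64 lie to the right of 0 and 55 above 0, with median steps of 2.05 uncovered and 0.60 covered.

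Detection at day 5 follows in part from the rule, which chose bright probes that were higher in the uncovered arm. The counts are therefore given only as a description. At day 5, 66 members were well above background on all 6 uncovered arrays and 57 on all 5 covered arrays, against 46 on all 6 arrays of day 0, 47 and 49 on all arrays of the uncovered and covered wound at day 3, and 46 on both unwounded arrays. The members not well above background on any uncovered array at day 3, apart from both unmeasured ones, were UF_Ocu_AF_111059, UF_Ocu_AF_112690, UF_Ocu_AF_112569, UF_Ocu_AF_103761 and UF_Ocu_AF_104865. Their uncovered day 5 level was at least 4.75-fold (UF_Ocu_AF_104865) to at least 13.2-fold (UF_Ocu_AF_111059) higher than at day 3. For these bounds a day 3 array counted at its dimmest detected probe, or at the member itself where that was brighter.

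UF_Ocu_AF_113422 had the largest difference. Its levels on the 6 uncovered arrays at day 5 were 0.19 to 1.68 with a median of 0.66, and on the covered arrays they were -4.32, -1.17, -1.57, -1.005 and -0.86. At day 3 the uncovered arrays ran from -8.93 to -4.76 with a median of -8.09, and the covered arrays read -7.12, -8.28, -8.78, -7.68 and -4.23. The arms at day 5 did not overlap, all covered arrays but replicate 1 lay above every earlier array, and the mean step was 8.46 uncovered and 5.43 covered. Its day 5 difference was 2.60 with all arrays and 1.97 without covered replicate 1. Only 1 array of each arm at day 3 was well above background for this probe, so the size of the step depends on signals at background.

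UF_Ocu_AF_103381 was among the brightest members. It stood at 3.99 to 5.31 (median 4.62) on the uncovered arrays at day 5 and at -0.17, 3.07, 2.86, 3.29 and 3.22 on the covered ones. At day 3 the 6 uncovered arrays ran from -1.08 to 0.84 (median -0.75), and the covered ones read -0.59, -0.58, -1.29, -0.94 and 0.58. The arms thus overlapped fully at day 3 and were separate at day 5, by 2.13 with covered replicate 1 and 1.48 without it. This probe shares a run of 29 bases with UF_Ocu_UN_116185, a probe of another contig (nbc03g02.x1) outside the class, whose day 5 and day 3 differences in the authors' table were 1.81 and 0.08.

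UF_Ocu_AF_107166 kept nearly the same level until day 3. It read -2.29 to -1.86 (median -2.08) at day 0, and at day 3 it read -2.88 to -1.52 (median -1.98) uncovered and -1.85, -2.13, -2.11, -2.44 and -1.98 covered. At day 5 the uncovered arrays ran from 0.43 to 2.25 with a median of 1.09, and the covered arrays read -2.57, -0.59, -0.76, -0.20 and -0.38. No covered array reached the lowest uncovered one. The other probes of the leading 10 had day 5 differences of 2.10 to 2.58 on the scanner scale, and of 1.60 to 2.03 without covered replicate 1. The covered step of UF_Ocu_AF_103350 was 0.31, the smallest of the 10, and 1.04 without covered replicate 1.

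**Figure D5:**
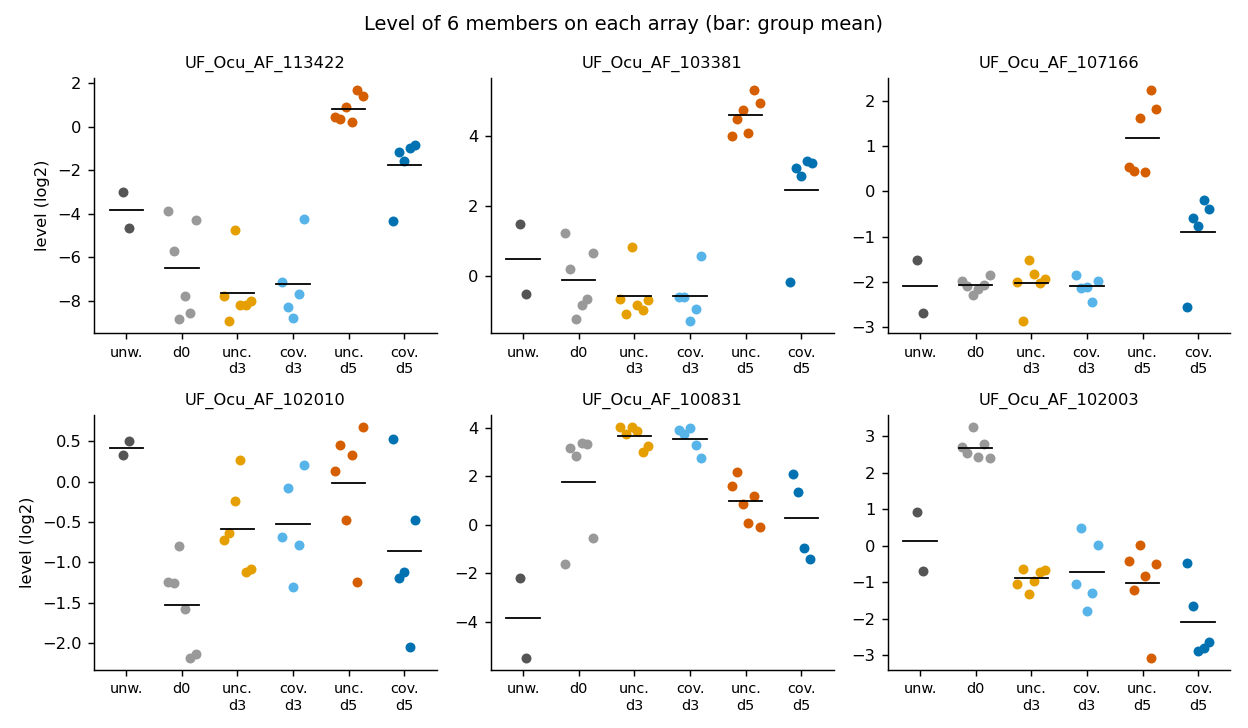
Level on each array (y axis, log2 relative to the array's 75th percentile) of 6 members by group (x axis), with the group mean as a bar. UF_Ocu_AF_113422, UF_Ocu_AF_103381 and UF_Ocu_AF_107166 stand highest on the uncovered arrays at day 5, while UF_Ocu_AF_100831 is highest at day 3, UF_Ocu_AF_102003 at day 0 and UF_Ocu_AF_102010 in unwounded skin.

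Several members, most of them leading ones, shared a pattern within the groups of day 0 and day 3, of which the rule used only the means. Wound replicates 1 and 6 at day 0 read -3.87 and -4.29 for UF_Ocu_AF_113422 against -8.81 to -5.69 on the other 4, and uncovered replicate 3 and covered replicate 5 at day 3 were likewise the highest of their groups. Over the 19 arrays of unwounded skin, day 0 and day 3, deviations from the group means of UF_Ocu_AF_113422 correlated with those of UF_Ocu_AF_113499 (r = 0.97), UF_Ocu_AF_103381 (r = 0.94), UF_Ocu_AF_102243 (r = 0.93) and UF_Ocu_AF_108052 (r = 0.92). The median over the other 67 members was 0.34, and the lowest was UF_Ocu_AF_100831 (r = -0.50). These correlations describe arrays that share slides and are given without a test, and the probes were singled out after their values were seen.

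All 68 members have at least 1 further probe on the same contig, and 6 of them share their contig with another member. The sequences of those 3 pairs are given because each pair reads the same contig at separate places. The capitals again mark runs of identical bases.
UF_Ocu_AF_112836 (nbc16a03.y1): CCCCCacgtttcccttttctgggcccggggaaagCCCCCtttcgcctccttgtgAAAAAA
UF_Ocu_AF_112837 (nbc16a03.y1): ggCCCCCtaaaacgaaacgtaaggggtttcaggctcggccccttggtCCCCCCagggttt
UF_Ocu_AF_102010: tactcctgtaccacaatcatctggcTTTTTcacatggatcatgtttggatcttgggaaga
UF_Ocu_AF_102011: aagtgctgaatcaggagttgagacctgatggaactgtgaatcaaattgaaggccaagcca
UF_Ocu_AF_113915 (naf05g04.y1): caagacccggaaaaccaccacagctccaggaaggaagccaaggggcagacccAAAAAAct
UF_Ocu_AF_113916 (naf05g04.y1): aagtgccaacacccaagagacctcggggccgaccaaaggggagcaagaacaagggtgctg
Within a pair, the longest run of bases in common was 5 to 7 bases, so the probes were not copies of each other.

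The pair UF_Ocu_AF_102010 and UF_Ocu_AF_102011 was highest in unwounded skin. UF_Ocu_AF_102010 read 0.33 and 0.50 in unwounded skin, -2.19 to -0.80 (median -1.42) at day 0, -1.25 to 0.68 (median 0.23) on the uncovered arrays at day 5, and 0.53, -1.20, -1.12, -2.05 and -0.48 on the covered ones. UF_Ocu_AF_102011 had the same order of group means, with -1.41 and -1.06 in unwounded skin and -3.91 to -2.41 (median -3.32) at day 0. The day 5 differences were 0.84 and 0.94 with arms that overlapped, and for both probes covered replicate 1 was the highest covered array. Without it the differences were 1.19 and 1.30.

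Contig naf05g04.y1 had a narrow spread at day 5. UF_Ocu_AF_113915 read -2.67 to -1.86 (median -2.14) uncovered and -3.37, -3.27, -2.94, -2.97 and -2.92 covered, and every uncovered array lay above every covered one. UF_Ocu_AF_113916 read -2.79 to -1.77 (median -2.29) and -3.65, -3.29, -3.09, -2.78 and -2.89, and the lowest uncovered array fell just below the highest covered one. Both went up from day 3 in both arms, by 2.82 and 2.86 uncovered and by 2.17 and 1.98 covered. Contig nbc16a03.y1 gave day 5 differences of 2.37 (UF_Ocu_AF_112836) and 1.32 (UF_Ocu_AF_112837), which were 1.73 and 0.63 without covered replicate 1.

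Probes outside the group on the same contigs were read on the same arrays that the rule used, so their values are only a description. Of these probes, 28 were bright probes of the class, and their day 5 difference in the authors' table had a median of 0.44 (range -0.43 to 1.23). Of the 28, 22 were above 0, 13 at 0.5 or more and 4 at 0.8 or more. Over all 7795 bright probes the median was -0.09, with 3132 above 0 and 269 at 0.8 or more. The median day 3 difference of the 28 was 0.04. For UF_Ocu_AF_102003 the partner UF_Ocu_AF_102002 had a day 5 difference of 1.21 and a day 3 difference of -0.40, and for UF_Ocu_AF_107924 the partner UF_Ocu_AF_107923 had 1.23 and 0.52. Both lay past the day 5 limit. A bright probe of the class past that limit is outside the group only through the day 3 limit. Missing the latter therefore follows from the rule. Some partners also differed at day 3, such as UF_Ocu_AF_107167 (0.72 at day 5 and 0.67 at day 3) and UF_Ocu_AF_114208 (0.68 and 1.03). Others did not, such as UF_Ocu_AF_109472 (0.70 and 0.11) and UF_Ocu_AF_102411 (0.66 and 0.10). For 23 members, including 6 of the leading 10, the partner was not well above background on any array. Those include UF_Ocu_AF_113422 and UF_Ocu_AF_113499, whose contigs therefore rest on 1 detected probe each. UF_Ocu_AF_105825 shares 51, 29 and 25 bases with UF_Ocu_AF_110884, UF_Ocu_AF_110119 and UF_Ocu_AF_106521 of other contigs, whose day 5 differences were 0.72, 0.69 and 0.50, and signals of such near copies cannot be told apart.

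A small set of members went down after day 3 rather than up. UF_Ocu_AF_100831 (contig R4Sub.22.C1) was at 3.02 to 4.05 (median 3.81) uncovered and at 3.92, 3.76, 4.00, 3.28 and 2.77 covered at day 3. At day 5 it was at -0.11 to 2.20 (median 1.03) uncovered and at 2.10, 1.36, -0.95 and -1.41 on the 4 covered arrays with a value. The arms overlapped at day 5, and the scanner difference of 0.69 lacks covered replicate 1, where all its spots were flagged. The authors' table, which has a value there, gives 1.53.

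UF_Ocu_AF_112410, UF_Ocu_AF_100076 and UF_Ocu_AF_102003 stayed within 0.5 in the uncovered arm from day 3 to day 5 (-0.31, -0.47 and -0.12) and went down under cover (-1.76, -1.62 and -1.36). UF_Ocu_AF_102003 stood at 2.41 to 3.26 (median 2.62) at day 0, above all later arrays. At day 5 it read -3.08 to 0.01 (median -0.68) uncovered and -0.47, -1.65, -2.88, -2.79 and -2.64 covered, with overlap through uncovered replicate 5 at -3.08 and covered replicate 1 at -0.47. For UF_Ocu_AF_112410 the uncovered arrays at day 5 were -0.65 to 0.20 (median -0.22) and the covered ones -1.89, -0.47, -1.27, -2.75 and -1.61.

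Comparisons that leave out the arms and day 5 show the members before the difference appeared. They were tested with limma over 12342 probes detected on at least 2 arrays, of which 66 were members, and a probe counted as changed at a Benjamini-Hochberg adjusted p under 0.05. Of the 66, 40 passed none of the 3 tests below. The share of all tested probes that passed none is not given here, so nothing is read from the 40. A member could pass the detection filter through its day 5 arrays alone, so counts over the 66 describe these probes and support nothing further.

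In the wound at day 0 against unwounded skin, 8 of the 66 members were higher and 11 lower (12.1% and 16.7%), where 17.1% and 20.2% of all tested probes were called in these directions. The median change was -0.18 over the members and -0.02 over all tested probes. It moved with the setting, to -0.93 over the members and -0.24 over all without slide 6, to -0.96 and -0.23 under a fixed slide block, to -0.51 and -0.07 under a random slide block, and to 0.38 and 0.40 under the normexp background correction. UF_Ocu_AF_100831 rose by 5.63 ± 1.09 (SE, limma adjusted p = 0.00022), from -2.20 and -5.51 in unwounded skin to -1.62 to 3.39 (median 3.02) at day 0, and wound replicates 1 and 6 were its low arrays. UF_Ocu_AF_100076 rose by 4.01 ± 0.71 (SE, limma adjusted p = 7.72e-05) and UF_Ocu_AF_112410 by 3.79 ± 0.65 (SE, limma adjusted p = 5.22e-05). In all 3 every wound array lay above both unwounded arrays, and in all 3 unwounded replicate 2 was much the lower of the pair (-6.61 against -2.41 for UF_Ocu_AF_100076). Without unwounded replicate 2, on slide 6, the rises were 3.97 (limma adjusted p = 0.0407), 1.90 (limma adjusted p = 0.0588) and 1.84 (limma adjusted p = 0.0434), so the call of UF_Ocu_AF_100076 was lost.

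The largest falls from unwounded skin to day 0 were in UF_Ocu_AF_112820, which fell by 2.59 ± 0.87 (SE, limma adjusted p = 0.0208), UF_Ocu_AF_107924, which fell by 2.22 ± 0.76 (SE, limma adjusted p = 0.0229), and UF_Ocu_AF_104512, which fell by 2.09 ± 0.55 (SE, limma adjusted p = 0.00367). The probes were well above background on 3, 2 and 2 of the 6 wound arrays. Over the 40 alternatives their adjusted p ranged from 0.011 to 0.276, from 0.0018 to 0.639 and from 0.00118 to 0.552, and the call was lost under 7, 3 and 3 of them. Without unwounded replicate 1, the difference was -0.76 for UF_Ocu_AF_107924 (limma adjusted p = 0.537) and -1.26 for UF_Ocu_AF_104512 (limma adjusted p = 0.154). Without unwounded replicate 2, it was -1.94 for UF_Ocu_AF_112820 (limma adjusted p = 0.25). UF_Ocu_AF_102010 and UF_Ocu_AF_102011 of the shared contig fell by 1.95 ± 0.52 and 2.05 ± 0.55 (SE, limma adjusted p = 0.00435 and 0.00428). These counts depend on the unwounded arrays, which were only 2. Without unwounded replicate 1 the members called were 15 higher and 4 lower (22.7% and 6.06%, against 20.9% and 16.2% of all tested probes). Without unwounded replicate 2 they were 2 and 9 (3.03% and 13.6%, against 9.3% and 11.6%). Without both arrays of slide 6 they were 3 and 21 (4.55% and 31.8%, against 10.4% and 14.2%). A fixed slide block gave 5 and 31 (7.58% and 47.0%, against 12.7% and 19.0%), and a random slide block 17 lower (25.8%, against 21.7%). The share of lower members was thus below that of all tested probes in the fit without a block and above it in these 3 settings.

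From day 0 to day 3 with both arms pooled (11 arrays against 6), 12 members rose and 3 fell (18.2% and 4.55%), against 26.7% and 18.5% of all tested probes. The median change was 0.18 over the members and 0.15 over all tested probes, and changes are to be read relative to that shift. UF_Ocu_AF_100567 rose by 2.07 ± 0.23 (SE, limma adjusted p = 3.08e-08), from -4.66 to -3.67 at day 0 to -2.76 to -1.61 uncovered and -2.26, -2.27, -2.43, -2.09 and -1.73 covered, without overlap. UF_Ocu_AF_112820 rose by 1.99 ± 0.54 (SE, limma adjusted p = 0.00351) and UF_Ocu_AF_100831 by 1.84 ± 0.67 (SE, limma adjusted p = 0.0282). Without wound replicate 1 or 6 at day 0 the call of UF_Ocu_AF_100831 was lost, at 1.16 (limma adjusted p = 0.133) and 1.38 (limma adjusted p = 0.107). UF_Ocu_AF_102003 fell by 3.50 ± 0.40 (SE, limma adjusted p = 5.67e-08), with every day 3 array below every day 0 array. UF_Ocu_AF_104293 fell by 0.88 ± 0.18 (SE, limma adjusted p = 0.000181) and UF_Ocu_AF_113915 by 0.60 ± 0.18 (SE, limma adjusted p = 0.00707). With each array scaled over all probes, 9 members rose and 4 fell, and the split over all tested probes turned from 3291 higher and 2287 lower to 2417 and 2934. Within the 5 slides that held arrays of both times, the median over the members was 0.41, -0.02, -0.33, 0.60 and 0.04.

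At day 3 with both arms pooled against unwounded skin (11 arrays against 2), 3 members were higher and 6 lower (4.55% and 9.09%), against 4.49% and 3.22% of all tested probes. UF_Ocu_AF_100831 was higher by 7.46 ± 1.02 (SE, limma adjusted p = 6.32e-05), UF_Ocu_AF_100076 by 3.88 ± 0.67 (SE, limma adjusted p = 0.000657) and UF_Ocu_AF_112410 by 3.49 ± 0.61 (SE, limma adjusted p = 0.000791). Each of the last 2 calls was lost under 3 alternatives, with adjusted p up to 0.399 and 0.438. Without unwounded replicate 2 their differences were 1.78 and 1.53, and that of UF_Ocu_AF_100831 was 5.81 (limma adjusted p = 0.0423). The largest falls were those of UF_Ocu_AF_113422, which fell by 3.60 ± 1.14 (SE, limma adjusted p = 0.0497), UF_Ocu_AF_113499, which fell by 3.28 ± 0.98 (SE, limma adjusted p = 0.0388), and UF_Ocu_AF_108052, which fell by 2.77 ± 0.82 (SE, limma adjusted p = 0.0369). UF_Ocu_AF_113422 and UF_Ocu_AF_113499 were detected on only 2 of the 11 day 3 arrays, and over the alternatives their adjusted p ranged from 0.0132 to 0.34 and from 0.0135 to 0.409. UF_Ocu_AF_108052 ranged from 0.0129 to 0.57. Of the 40 alternatives, 29 lost the call of UF_Ocu_AF_113422, 10 that of UF_Ocu_AF_113499 and 8 that of UF_Ocu_AF_108052. The call of UF_Ocu_AF_113422 thus failed under most settings.

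The count of lower members against unwounded skin was the least stable. Most counts that follow have no share of all tested probes beside them and describe the settings alone. The count of lower members was 3 without uncovered replicate 1 or 6 at day 3 and 2 without uncovered replicate 5. The count of higher members was 13 without unwounded replicate 1, 1 without replicate 2, 1 without slide 6 and 8 without covered replicate 1 at day 5, which enters only through the shared spread. The median over the members was 0.22 in the fit over all arrays, -0.55 without slide 6, -0.65 with slide as a fixed block, -0.17 with it as a random block, and -0.39 within slide 5, the only slide with both groups. With slide as a fixed block, 13 members were lower (19.7%, against 1.98% of all tested probes). The higher calls of UF_Ocu_AF_100831 passed under all 40 alternatives in both tests against unwounded skin, with adjusted p from 9.1e-06 to 0.0423 at day 3 and from 1.57e-05 to 0.0407 at day 0.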

How the data were processed

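Epidermal RNA of 30 samples was hybridised to 1-colour (Cy3) Agilent arrays, 1 sample per array. Per the file headers, each spot's intensity in the scanner output came from Agilent Feature Extraction 10.1.1.1 after background subtraction and without scaling across arrays. Other columns of these deposited files flag spots (0 or 1) as detected above background, saturated or outlying. In the series table the authors deposited 1 linear intensity per probe and array. The submitters' processing notes name limma, and its background correction was not given in the sources used here.

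Members were found on log2 of the series table. Levels and tests used log2 processed signal without control and outlier-flagged spots, spots of a probe averaged, minus each array's 75th percentile over the 7446 probes that all 30 arrays detected well above background (on 28 arrays fewer than 50% of the probes were detected, and 39.7 to 50.4% per array). All arrays and 6 groups entered 1 limma 3.58.1 fit in R 4.3.3 (lmFit, eBayes, 2-sided, no block), adjusted by Benjamini-Hochberg over the 12342 probes that 2 or more arrays detected. Day 3 was pooled over both arms with equal weight per array. The fit was tested on simulated data. The members and lists were chosen with earlier results of these data known. Probes named are the 10 with the largest day 5 difference, those beside each limit, the 3 largest called rises and falls of each test, and members that share a contig, and others were chosen after their values were seen. Within groups the arrays correlated with r from 0.915 to 0.994. Alternatives were scaling, background correction, the authors' table, the dim filter, slide and replicate blocks, array weights and leaving out each array. The number of arrays limits the precision.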

Additional observations from a re-analysis of the deposited data

Results flagged for a closer look

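Values on 1 array lay far from the rest of their group for the median over the members and for the 10 members with the largest day 5 difference, which were examined in the 5 groups of 4 or more arrays, 55 sets of values in all. Chance alone gives such a gap in about 1 of 20 independent sets of values that played no part in choosing the probes. Here the probes were chosen by their day 5 difference, which a low covered array raises, and the sets share arrays. That rate is therefore no guide to the number of gaps found. Covered replicate 1 at day 5, the array of slide 6, was the low one in 10 sets, the median over the members and 9 single members. The median stood at -5.43 there, with the nearest array at -3.13. Its levels were -4.32 for UF_Ocu_AF_113422, -4.20 for UF_Ocu_AF_102243, -3.53 for UF_Ocu_AF_113499, -2.57 for UF_Ocu_AF_107166 and -0.17 for UF_Ocu_AF_103381. They were -7.98 for UF_Ocu_AF_106340, -5.43 for UF_Ocu_AF_106741, -6.87 for UF_Ocu_AF_113773 and -7.67 for UF_Ocu_AF_103350. Over all 68 members this array stood apart for 38.

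Uncovered replicate 3 at day 3 was the high array for UF_Ocu_AF_113422 (-4.76), UF_Ocu_AF_102243 (-4.79), UF_Ocu_AF_113499 (-4.85) and UF_Ocu_AF_103381 (0.84). For UF_Ocu_AF_107166, uncovered replicate 2 at day 3 was the low array (-2.88, with the nearest at -2.02). No explanation was tested.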

How the results depend on the processing

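With the 75th percentile taken over all probes the counts of members called stayed within 1.5 times, while the split over all tested probes turned from 554 higher and 398 lower to 453 and 496 at day 3 against unwounded skin, as it did from day 0 to day 3. For day 0 against unwounded skin, higher members numbered 5 with no filter on dim probes, with slide as a fixed block and with the replicate block, and 3 without slide 6. The lower members numbered 3 under normexp, 31 with slide as a fixed block (47.0%, against 19.0% of all tested probes), 17 with it as a random block, 21 without slide 6 and 2 under array weights (3.03%, against 11.3%). From day 0 to day 3 the risers numbered 4 under normexp and 7 in the authors' table. All tested probes that rose numbered 3291 in the reported fit, 1715 under normexp and 2625 in the authors' table. Members that fell numbered 5 under quantile normalization and in the authors' table, 1 under normexp and 9 under array weights. All tested probes that fell numbered 2287 in the reported fit, and 2756, 2788, 1695 and 2929 in these settings. At day 3 against unwounded skin, the higher members numbered 1 without slide 6 and under array weights. The lower members numbered 13 with slide as a fixed block, 3 without slide 6, 1 with no dim filter and with the replicate block, and 0 under normexp and under array weights, where limma gave 3 and 6 at an unadjusted p under 0.05. At day 0 against unwounded skin, lower calls over all tested probes numbered 2491 in the reported fit. They numbered 1132 under normexp, 2684 with the random slide block and 1390 under array weights. Higher calls were 2107, against 1571 and 1789 with the fixed slide and replicate blocks. At day 3 against unwounded skin, lower calls numbered 398, against 198 with the replicate block, 74 under normexp and 27 under array weights. Without slide 6 the lone unwounded array is assumed to vary like the other groups. The rule kept 41 probes with a day 5 limit of 1.0 and 240 when applied to the scanner signals, 50 of them shared.

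With 1 array left out, the counts ran from 2 to 15 higher and 4 to 15 lower at day 0 against unwounded skin, 8 to 15 and 3 to 4 from day 0 to day 3, and 1 to 13 and 1 to 7 at day 3 against unwounded skin. The shares of all tested probes are not given beside these counts, so the counts describe the settings alone. The median of covered minus uncovered ran from -1.51 to -1.15 at day 5 and from -0.19 to -0.04 at day 3. The members with separate arms ran from 39 to 49. The probes kept by the rule ran from 56 to 89, with 50 shared without covered replicate 1 and 54 shared without uncovered replicate 5. Covered minus uncovered at day 5 was -1.41 in the reported setting, over the 66 tested members, and -1.10 in the authors' table. For single named members, 245 values under other settings kept their direction and any call and 35 lost a call, and with 1 array left out 802 kept them and 38 lost a call, with none in the opposite direction. The replicate numbers were not taken to pair the arrays. Deviations of same-numbered arrays of different groups correlated with a median of -0.01 over 63 pairs (range -0.72 to 0.52). That check cannot exclude arrays that share an animal. Arrays of different groups on 1 slide correlated with a median of 0.29 over 31 pairs (highest 0.72). Apart from the counts above, the replicate block gave 8 lower at day 0 and 11 and 3 from day 0 to day 3. The counts of members with separate arms under other settings, the steps without covered replicate 1 and the values against single unwounded arrays were added after seeing the data. The causes were not tested. Members dim before day 5 are limited by signal over background.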

Other observations

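The names of the contigs fall into styles that the files do not explain. Names of the clone type (such as nag36h11.x1) belonged to 35 of the 68 members (51.5%), to 30.9% of the bright probes and to 38.2% of the class. Those that begin with nbc made up 17 members (25.0%) and 15.1% of the bright probes. UF_Ocu_UN_121159 and UF_Ocu_UN_117487, probes of contig nag22h06.x1 outside the class, share 21 bases with UF_Ocu_AF_104239, the first on the same and the other on the reverse strand. Their day 5 differences in the authors' table were 1.31 and 0.83, and their day 3 differences 0.28 and 0.05.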
